A study of Mus musculus with 16 samples.

Results

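Mouse neural crest cells primed towards glia were compared with neural crest cells primed towards mesenchyme. The comparison took 8 of the 16 expression arrays of the study, 4 labelled as glia-primed and 4 labelled as mesenchyme-primed, by their titles and cell type labels. The other arrays were 4 of neuron-primed and 4 of unprimed crest cells, which gave the background levels and shared in the estimate of the spread. All cells were primary mouse material grown in a neural crest stem cell medium, and the labels give treatment with instructive growth factors, not named, for every sample, the unprimed ones included. The sources used here give neither doses nor the length of the exposure, and neither embryo age nor mouse strain. The study set primed crest cells against migratory ones, and the present comparison asks how the glial and the mesenchymal condition differed from each other. Nothing in the labels ties a replicate to an embryo or culture of its own. The p-values therefore reflect the spread among these arrays alone, and how much of that spread is technical was not tested.

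The neural crest is a migratory embryonic cell population that leaves the dorsal neural tube and forms peripheral glia, neurons, pigment cells, smooth muscle and much of the facial skeleton. In cultured rat crest stem cells, neuregulin is known to favour glia, BMP ligands autonomic neurons and TGF-beta smooth muscle. Cells make cholesterol from acetyl-CoA through the mevalonate pathway, whose genes are switched on together by SREBP transcription factors when membrane sterol is low, and INSIG proteins hold these factors in the endoplasmic reticulum when sterol is plentiful. Low oxygen stabilises HIF transcription factors, which raise glucose transporters, glycolytic enzymes and genes that restrain mitochondrial respiration.

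Values are log2 intensities of 1 probe set per gene, for 18194 genes, and a difference of 1 on this scale is a 2-fold difference. Correlations over genes were 0.92 to 0.957 within glia-primed arrays, 0.93 to 0.953 within mesenchyme-primed arrays and 0.907 to 0.957 between the groups. The first principal component of the 8 arrays (22.2% of the variance) placed glia-primed arrays at 10.5 to 12.5 and, for replicate 4, at 82.9, against -51.3 to -14.4 for mesenchyme-primed arrays. On the second component (17.1%), glia-primed replicate 4 was at -46.5 and the other glia-primed arrays at 20.4 to 48.1, while mesenchyme-primed replicate 3 was at -55 and the other mesenchyme-primed arrays at -3.36 to 4.88. RNA integrity was read from the 3' to 5' log2 ratio of the Gapdh control probe sets. It was 2.95 ± 0.391 in glia-primed arrays and 2.96 ± 0.222 in mesenchyme-primed arrays (SD, n = 4 each). The beta-actin ratio was -0.17 ± 0.0786 in glia-primed and -0.282 ± 0.15 in mesenchyme-primed arrays. Unprimed arrays had lower ratios than both, 2.35 ± 0.187 for Gapdh and -0.531 ± 0.158 for beta-actin. The part of this in differences from unprimed arrays was not tested. Xist, the RNA that coats the inactive X chromosome, was at 2.61 to 5.34 in glia-primed arrays. It was at 10.17, 2.68, 11.22 and 8.96 in mesenchyme-primed replicates 1 to 4. The Xist level was thus partly tied to the compared groups, and the sex of the cells was not told apart from the priming. These are bulk samples, in which fewer cells of a type and less RNA per cell cannot be told apart.

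Sterol synthesis enzymes, fatty acid desaturases, a glucose transporter, glycolytic enzymes and genes induced by hypoxia were lower in glia-primed cells. The carboxypeptidase Cpm, the retinal reductase Dhrs3, Id3 and Spsb1 were among the genes that were higher. In all, 41 of 18194 genes passed at a limma adjusted p under 0.05 (0.225%), of which 13 were higher (0.0715%) and 28 lower (0.154%) in glia-primed arrays. A difference of at least 2-fold was seen in 12 of the higher and 26 of the lower genes. The 4 glia-primed and 4 mesenchyme-primed values did not overlap for any of the 41 genes, as was the case for 828 of all genes (4.55%), 380 with higher (2.09%) and 448 with lower (2.46%) glia-primed values. An unadjusted p under 0.05 was found for 1283 genes, 618 higher and 665 lower in glia-primed arrays. The median difference over all genes was -0.000518.

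The size of this set depended on single arrays, while the direction of the 41 genes did not. Neuron-primed replicate 1 contributes to the spread alone, and without it 25 genes were higher and 43 lower. With glia-primed replicates 1 to 4 left out in turn, the higher genes numbered 5, 8, 2 and 5, and without replicate 3 or 4 the lower genes numbered 16 and 17. With mesenchyme-primed replicates 1 to 3 left out in turn, the higher genes numbered 2, 2 and 4, and without replicate 1, 3 or 4 the lower genes numbered 12, 17 and 18. Without unprimed replicate 1 or 2, which also enter only the spread, 7 and 8 genes were higher. With the Xist level as a covariate 5 genes were higher and 16 lower, and 19 of the 41 were among them. Housekeeping centring shifted the median over all genes to 0.238 and turned the split to 26 higher and 19 lower, with 32 of the 41 among them.

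Each primed group was also set against unprimed cells. In glia-primed arrays 93 genes differed from unprimed arrays (0.511%), and in mesenchyme-primed arrays 4 did (0.022%). Both counts use the same 4 unprimed arrays, so they are not independent of each other. For 25 of the 28 lower and 10 of the 13 higher genes the mesenchyme-primed mean lay nearer to the unprimed mean than the glia-primed mean did. The neuron-primed mean lay above the mesenchyme-primed mean in 0 of the 28 lower and 13 of the 13 higher genes. These genes were chosen by the gap between glia-primed and mesenchyme-primed values. That choice alone favours neuron-primed means on the glia-primed side of the mesenchyme-primed mean. The counts of means are descriptions with no test and were not set against all genes.

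Of 18 measured cholesterol synthesis genes, 9 were lower in glia-primed cells, at early, middle and late steps of the pathway, 0 were higher and 9 did not pass, against 0.154% of all genes lower. Their median difference was -1.97, against -0.000518 over all genes, and 14 members had glia-primed values that all lay under the mesenchyme-primed ones, against 2.46% of all genes. The mean level of the list was 6.20 to 6.92 in glia-primed arrays, against 8.50 to 8.58 in mesenchyme-primed arrays. It was 6.44 to 7.36 in neuron-primed and 8.66 to 9.02 in unprimed arrays, so mesenchyme-primed arrays lay nearer to the unprimed ones than glia-primed arrays did.

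The early steps make the isoprenoid building blocks. Pmvk, the phosphomevalonate kinase, was at 8.65, 8.59, 8.21 and 8.48 in glia-primed arrays and at 10.03, 9.60, 10.03 and 10.28 in mesenchyme-primed arrays, a difference of -1.5 (SE 0.25, limma adjusted p = 0.0196). Mvd, the decarboxylase that follows it, was at 5.02, 5.22, 5.11 and 5.77 in glia-primed arrays, against 7.44, 8.23, 7.65 and 7.89 in mesenchyme-primed arrays. That is 5.75-fold lower (log2 difference -2.52, SE 0.24, limma adjusted p = 0.000773), the smallest adjusted p of all genes. Idi1, the isopentenyl diphosphate isomerase, was at 10.24, 9.0, 9.02 and 9.15 in glia-primed and at 11.12, 11.52, 11.36 and 11.30 in mesenchyme-primed arrays. Glia-primed replicate 1 was thus the nearest to the mesenchyme-primed range, and the difference was -1.97 (SE 0.26, limma adjusted p = 0.00418). Hmgcs1, which makes the first committed substrate of the pathway, did not pass (10.40 to 11.46 in glia-primed and 12.20 to 12.77 in mesenchyme-primed arrays, difference -1.68, limma adjusted p = 0.0989). The farnesyl diphosphate synthase Fdps missed the threshold more narrowly, with a difference of -1.98 (limma adjusted p = 0.0544).

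The middle steps build the sterol ring as lanosterol and remove its first methyl group. Sqle, the squalene epoxidase, was at 7.41, 7.17, 6.38 and 7.13 in glia-primed arrays, against 9.16, 8.95, 8.96 and 9.21 in mesenchyme-primed arrays (difference -2.05, SE 0.21, limma adjusted p = 0.000796). Lss, the lanosterol synthase that closes the ring, had the largest difference of the list. It was at 8.12, 8.02, 7.63 and 6.96 in glia-primed arrays and at 10.96, 11.32, 10.57 and 11.24 in mesenchyme-primed arrays, which is 10.2-fold lower (difference -3.34, SE 0.47, limma adjusted p = 0.00803). Its 2 other probe sets gave differences of -2.75 and -2.71. Cyp51, which removes the first methyl group from lanosterol, was at 8.23, 8.46, 8.31 and 8.97 in glia-primed and at 10.74, 11.14, 11.09 and 10.65 in mesenchyme-primed arrays (difference -2.41, SE 0.26, limma adjusted p = 0.000854). Fdft1, the squalene synthase, did not pass (difference -1.96, limma adjusted p = 0.102), although its 4 glia-primed values of 6.99 to 9.07 lay under the mesenchyme-primed range of 9.54 to 10.58.

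The late steps complete the conversion of lanosterol into cholesterol. Nsdhl, a sterol dehydrogenase, was at 5.39, 4.61, 5.11 and 4.96 in glia-primed arrays, against 7.35, 8.22, 8.14 and 7.52 in mesenchyme-primed arrays (difference -2.79, SE 0.31, limma adjusted p = 0.00116). Tm7sf2, a sterol reductase, was at 4.97, 4.55, 6.14 and 5.16 in glia-primed and at 8.05, 7.72, 7.45 and 7.84 in mesenchyme-primed arrays (difference -2.56, SE 0.39, limma adjusted p = 0.0129). Dhcr7, the reductase of the last step, was at 6.53, 5.50, 5.40 and 4.43 in glia-primed and at 8.68, 8.77, 8.59 and 9.07 in mesenchyme-primed arrays, which is 9.94-fold lower (difference -3.31, SE 0.52, limma adjusted p = 0.0163). The spread of Dhcr7 lay mostly in the glia-primed arrays, whose SD was 0.86 against 0.21 in the mesenchyme-primed arrays. Msmo1, a sterol methyl oxidase, did not pass (3.87 to 6.66 in glia-primed and 7.45 to 8.0 in mesenchyme-primed arrays, difference -2.43, limma adjusted p = 0.0989). Ggps1, which draws isoprenoids away from sterol synthesis, was the only member with a positive difference, 0.28 (limma adjusted p = 0.974), and its groups overlapped.

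**Figure D1:**
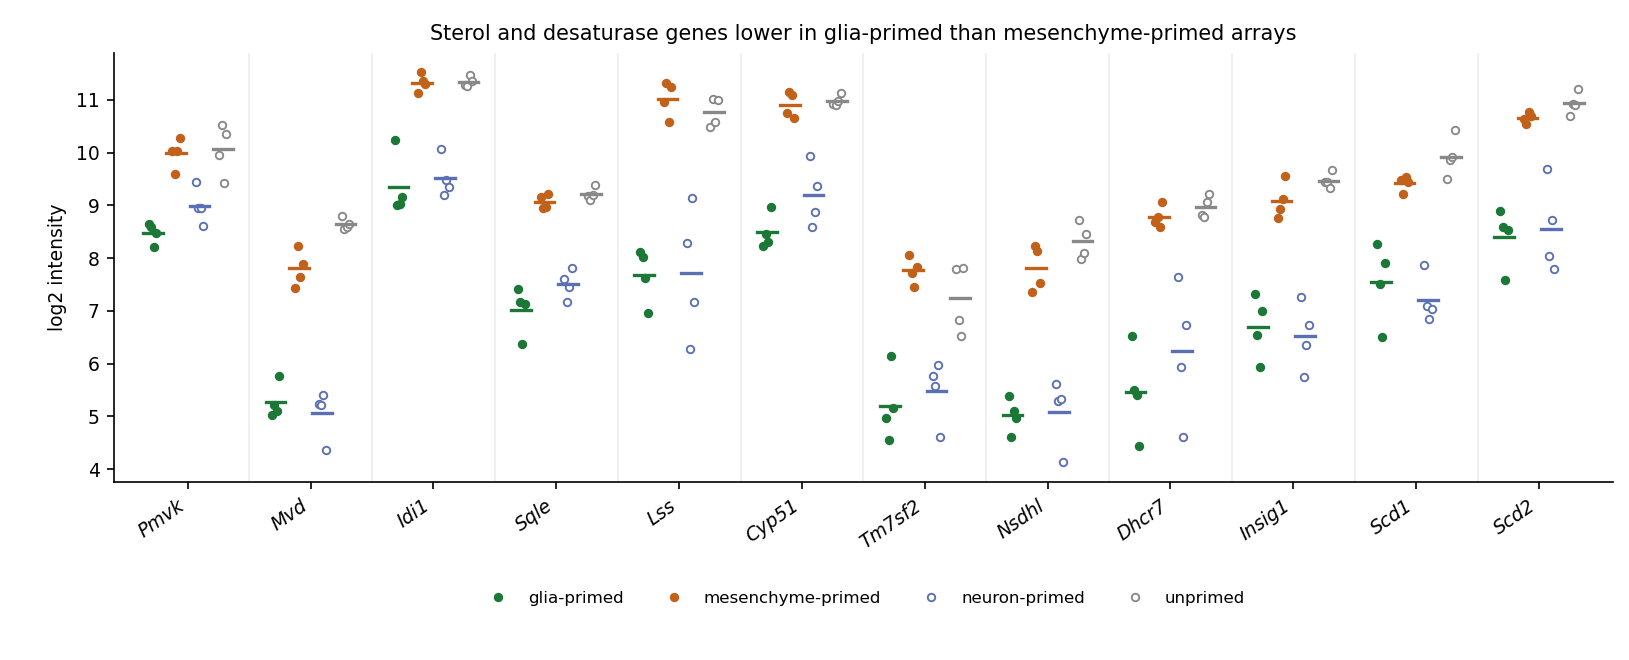
Log2 intensity of 12 sterol and desaturase genes in each array (points) with the mean of each group of 4 (lines); glia-primed and mesenchyme-primed arrays are filled, neuron-primed and unprimed arrays open. All 4 glia-primed arrays lie under all 4 mesenchyme-primed arrays for each of the 12 genes, and the unprimed means lie closer to the mesenchyme-primed than to the glia-primed means.

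Of 14 measured genes that regulate sterol supply, 1 was lower (against 0.154% of all genes), 0 were higher and 13 did not pass. The median difference was 0.117. The lower one was Insig1, itself a target of SREBP, at 7.31, 6.54, 5.94 and 7.0 in glia-primed arrays and at 8.75, 8.93, 9.11 and 9.56 in mesenchyme-primed arrays (difference -2.39, SE 0.33, limma adjusted p = 0.00561). The SREBP genes themselves did not pass. Srebf2 was at 4.55 to 6.54 in glia-primed and at 6.18 to 7.02 in mesenchyme-primed arrays, so the groups overlapped (difference -1.09, limma adjusted p = 0.692). Srebf1 had a difference of -0.79 (limma adjusted p = 0.891) and Scap, the sterol sensor that escorts SREBP, of 0.45 (limma adjusted p = 0.87).

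Fatty acid synthesis genes had 2 of 20 measured members lower, 0 higher and 18 not passed, with a median difference of -0.936, against 0.154% of all genes called lower. In 9 members the glia-primed values all lay under the mesenchyme-primed ones, against 2.46% of all genes. Both lower genes are stearoyl-CoA desaturases, which make monounsaturated fatty acids. Scd2, the isoform known from brain, was at 8.90, 8.59, 7.58 and 8.53 in glia-primed arrays and at 10.63, 10.54, 10.76 and 10.70 in mesenchyme-primed arrays (difference -2.26, SE 0.35, limma adjusted p = 0.0163). Scd1 was at 8.26, 7.50, 6.51 and 7.90 in glia-primed and at 9.48, 9.22, 9.54 and 9.44 in mesenchyme-primed arrays (difference -1.88, SE 0.33, limma adjusted p = 0.0307). Glia-primed replicate 3 was the lowest array for both. The count of this list was 0 without glia-primed replicate 3 and without mesenchyme-primed replicates 1 or 3, and 1 without glia-primed replicates 2 or 4 and without mesenchyme-primed replicates 2 or 4. Fasn, the fatty acid synthase (difference -1.51, limma adjusted p = 0.0743), and the elongase Elovl6 (difference -1.75, limma adjusted p = 0.149) did not pass. Fabp5, a fatty acid carrier outside the list, was lower by a small but even step, at 10.49 to 10.83 in glia-primed and 11.45 to 11.62 in mesenchyme-primed arrays (difference -0.79, SE 0.14, limma adjusted p = 0.0307). The Fabp5 call was lost without any 1 of the 8 arrays compared.

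The promoters of sterol genes are shown because these genes moved together and carry a known shared element, the CCAAT box bound by NF-Y, which acts beside SREBP. Promoters are the 250 bases before the start site in RefSeq on GRCm38.p6, 5′ to 3′ on the strand of the gene, and capitals mark each CCAAT on either strand (ATTGG where it lies on the opposite one).
The promoters read as follows.
Mvd (chr8:122443423-122443672, minus strand): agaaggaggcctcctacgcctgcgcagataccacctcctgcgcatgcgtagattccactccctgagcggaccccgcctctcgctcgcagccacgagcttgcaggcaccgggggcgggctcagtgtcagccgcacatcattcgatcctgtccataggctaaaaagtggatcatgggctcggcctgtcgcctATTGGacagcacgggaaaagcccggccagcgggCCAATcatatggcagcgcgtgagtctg
Cyp51 (chr5:4104698-4104947, minus strand): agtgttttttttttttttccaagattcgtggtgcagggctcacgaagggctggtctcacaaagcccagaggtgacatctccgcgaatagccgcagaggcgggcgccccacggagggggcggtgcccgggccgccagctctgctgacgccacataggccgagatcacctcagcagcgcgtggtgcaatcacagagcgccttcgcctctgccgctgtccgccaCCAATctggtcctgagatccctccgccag
Insig1 (chr5:28071162-28071411, plus strand): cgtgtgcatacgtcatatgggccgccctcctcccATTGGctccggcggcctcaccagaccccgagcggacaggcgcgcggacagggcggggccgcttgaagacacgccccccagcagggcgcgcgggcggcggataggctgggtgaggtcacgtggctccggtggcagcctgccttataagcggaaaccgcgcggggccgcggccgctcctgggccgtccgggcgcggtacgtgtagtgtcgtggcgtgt

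Mvd had 2 CCAAT boxes, 60 and 27 bases before the start, on opposite strands. The box lay 29 bases before the start in Cyp51 and 216 bases before it in Insig1. Of the 9 called sterol synthesis genes and Insig1, 10 in all, 9 had a promoter entry and 8 of these held CCAAT (88.9%), against 34.5% of 27025 promoters. The sterol regulatory element, searched as TCACNCCAC on both strands, was in 0 of the 9, against 1.04% of all promoters, and only these letters in this window were searched. Which promoters hold a motif is a description and gives no measure of binding.

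Of 20 measured glycolysis genes 3 were lower in glia-primed cells, 0 were higher and 17 did not pass, against 0.154% of all genes lower. The median difference was -0.846, and 14 members had all glia-primed values under all mesenchyme-primed ones, against 2.46% of all genes. The mean level of the list was 7.58 to 8.13 in glia-primed arrays, against 8.79 to 9.10 in mesenchyme-primed arrays. It was 7.77 to 7.91 in neuron-primed arrays, within the glia-primed range, and 8.37 to 9.26 in unprimed arrays. Slc2a3, a high-affinity glucose transporter abundant in neurons, had the largest difference among the 28 lower genes. It was at 6.95, 4.68, 4.65 and 6.30 in glia-primed arrays and at 9.87, 8.73, 10.39 and 9.0 in mesenchyme-primed arrays, which is 14.5-fold lower (difference -3.85, SE 0.56, limma adjusted p = 0.00917). Its other probe sets gave -3.54, -2.83 and -1.33, so the size is rough while the sign was shared. Pfkl, a phosphofructokinase subunit, was at 7.32, 7.61, 7.47 and 7.92 in glia-primed and at 8.94, 9.44, 9.67 and 9.70 in mesenchyme-primed arrays (difference -1.86, SE 0.33, limma adjusted p = 0.0352). Tpi1, the triosephosphate isomerase, was at 10.10, 9.56, 9.47 and 9.66 in glia-primed and at 11.61, 11.35, 11.22 and 11.31 in mesenchyme-primed arrays (difference -1.68, SE 0.21, limma adjusted p = 0.00257).

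The bright enzymes of later glycolysis had smaller differences that did not pass. Pkm, the pyruvate kinase, was at 11.19 to 11.52 in glia-primed and 11.96 to 12.14 in mesenchyme-primed arrays (difference -0.74, limma adjusted p = 0.0606). Pgk1 had a difference of -0.74 (limma adjusted p = 0.0846), Pgam1 of -0.58 (limma adjusted p = 0.0989) and Ldha, the lactate dehydrogenase subunit, of -0.81 (limma adjusted p = 0.405), each with no overlap between the groups. The transporters Slc2a1 (difference -1.59, limma adjusted p = 0.115) and Slc16a3, which exports lactate (difference -2.78, limma adjusted p = 0.207), did not pass either. The count of 3 became 5 without neuron-primed replicate 1 and 1 with the Xist level as a covariate. It was also 1 when probe sets that can match several transcripts were left out. Slc2a3 then passed on another probe set (difference -2.83, limma adjusted p = 0.0261), Pfkl did not (difference -1.12, limma adjusted p = 0.204), and Tpi1 had no value. The Pfkl call was lost without any 1 of the 8 arrays compared.

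Genes induced by hypoxia had 3 of 22 measured members lower, 0 higher and 19 not passed. Their median difference was -0.93, and 11 members had all glia-primed values under the mesenchyme-primed ones, against 0.154% of all genes called lower and 2.46% without overlap in that direction. Ak4, a mitochondrial adenylate kinase, was at 8.13, 7.35, 7.15 and 7.76 in glia-primed arrays and at 9.61, 9.52, 9.40 and 8.91 in mesenchyme-primed arrays (difference -1.76, SE 0.26, limma adjusted p = 0.00948). Pdk1, the kinase that turns off pyruvate dehydrogenase, was at 5.40, 4.91, 4.32 and 4.10 in glia-primed and at 8.17, 6.55, 8.36 and 7.41 in mesenchyme-primed arrays, which is 7.66-fold lower (difference -2.94, SE 0.47, limma adjusted p = 0.0176). Ddit4, a stress-induced inhibitor of mTORC1, was at 9.82, 9.58, 8.68 and 10.27 in glia-primed and at 12.19, 11.34, 12.27 and 11.37 in mesenchyme-primed arrays (difference -2.20, SE 0.39, limma adjusted p = 0.0325). The mean level of the list was 5.44 to 5.98 in glia-primed and 6.66 to 7.31 in mesenchyme-primed arrays. It was 6.4 to 6.83 in unprimed arrays, which overlapped the mesenchyme-primed range, and 5.77 to 5.95 in neuron-primed arrays, within the glia-primed range.

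**Figure D2:**
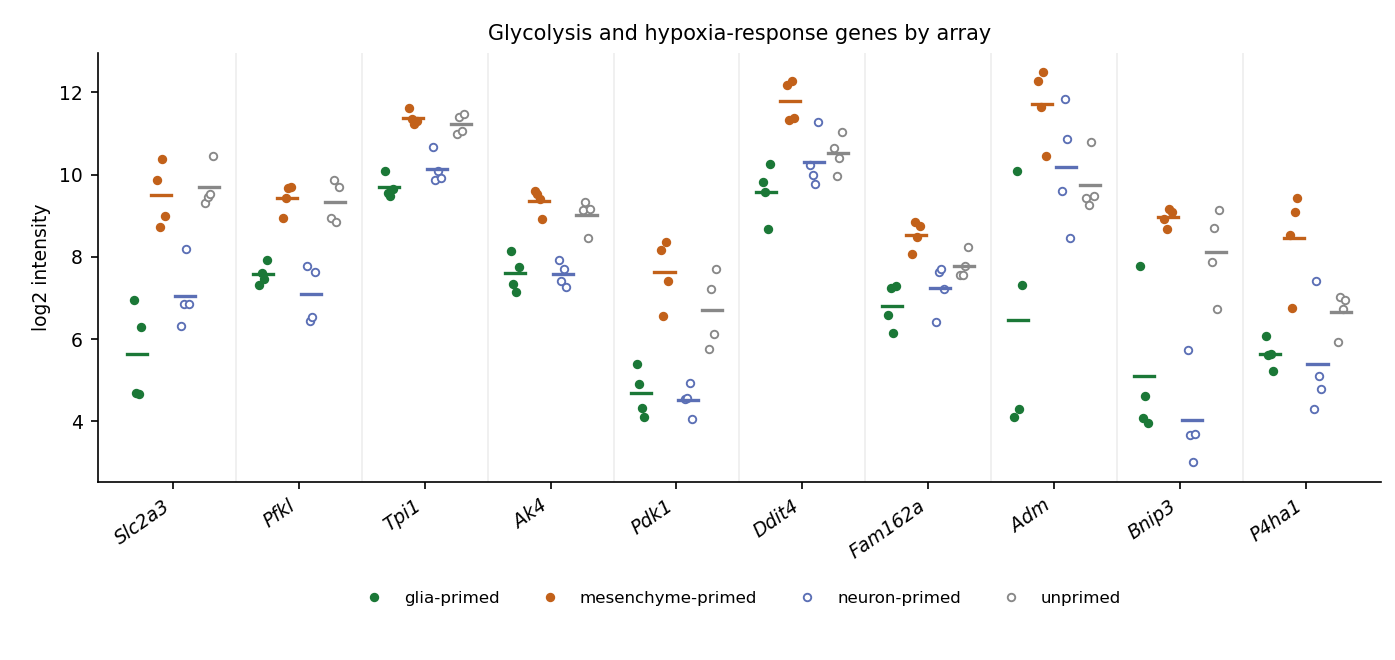
Log2 intensity of 10 glycolysis and hypoxia genes in each array (points) with the mean of each group of 4 (lines). Glia-primed arrays lie under mesenchyme-primed arrays for all 10, but Adm, Bnip3 and P4ha1 did not pass the test, and Adm spreads from 4.11 to 10.08 among glia-primed arrays.

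The largest differences of this list did not pass, and their arrays spread widely within a group. Adm, which encodes the vasodilator adrenomedullin, was at 4.11, 10.08, 4.30 and 7.32 in glia-primed and at 12.29, 11.65, 12.49 and 10.46 in mesenchyme-primed arrays (difference -5.27, SE 1.10, limma adjusted p = 0.0779). The other Adm probe set, with a mean of 2.43, gave a difference of 0.0232, so the value rests on 1 probe set. Bnip3, a mitophagy receptor, was at 7.78 in glia-primed replicate 1 and 3.95 to 4.61 in the other 3, against 8.68 to 9.17 in mesenchyme-primed arrays (difference -3.86, limma adjusted p = 0.0672). P4ha1, a collagen prolyl hydroxylase subunit, had a difference of -2.81 (limma adjusted p = 0.0999), with mesenchyme-primed replicate 2 at 6.75 and the other 3 at 8.54 to 9.42. Hif1a, whose protein rather than RNA is oxygen-regulated, had a difference of -0.18 with overlapping groups (limma adjusted p = 0.962). The count of 3 was 0 without mesenchyme-primed replicate 1 and in a fit of only the 8 arrays, and 1 without glia-primed replicate 3, without mesenchyme-primed replicate 3 and with the Xist level as a covariate. Fam162a, a mitochondrial protein known as a HIF target, was lower too though not in the list (6.15 to 7.28 in glia-primed and 8.08 to 8.84 in mesenchyme-primed arrays, difference -1.73, SE 0.32, limma adjusted p = 0.0381). The Fam162a call was lost in 12 of 16 fits that left out 1 array.

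The Ddit4 promoter is shown because it held the core of the hypoxia response element, ACGTG, marked in capitals 187 bases before the start.
It reads as follows.
Ddit4 (chr10:59951771-59952020, minus strand): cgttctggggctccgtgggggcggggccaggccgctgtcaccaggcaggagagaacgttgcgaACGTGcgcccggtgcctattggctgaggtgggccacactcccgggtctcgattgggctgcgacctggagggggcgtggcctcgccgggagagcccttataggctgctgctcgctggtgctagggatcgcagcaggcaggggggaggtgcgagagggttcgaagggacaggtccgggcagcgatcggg

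Of the 6 called genes of the glycolysis and hypoxia lists 5 had a promoter entry, and Ddit4 was the only one of these with ACGTG on either strand (20%), against 16.6% of all promoters.

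Of 17 measured retinoid genes 1 was higher, 1 lower and 15 did not pass, with a median difference of 0.251. The shares over all genes were 0.0715% higher and 0.154% lower. Retinoic acid is made from retinol by way of retinal, and the 2 called genes encode enzymes that drive this first step in opposite directions. Dhrs3, which reduces retinal back to retinol and is itself induced by retinoic acid, was at 6.67, 6.45, 7.43 and 7.74 in glia-primed arrays and at 3.33, 4.64, 3.93 and 4.07 in mesenchyme-primed arrays. That is 8.46-fold higher (difference 3.08, SE 0.37, limma adjusted p = 0.00196). Rdh10, which oxidises retinol to retinal, was at 4.25, 5.01, 3.09 and 3.65 in glia-primed and at 7.04, 7.70, 7.16 and 6.62 in mesenchyme-primed arrays, which is 8.77-fold lower (difference -3.13, SE 0.41, limma adjusted p = 0.00418). Both calls rest on probe sets ending in _a_at, which can match several transcripts of the same gene. With these and the _s_at and _x_at probe sets left out, 0 of the 13 retinoid genes that then had a value passed. Dhrs3 has no other probe set, and the other Rdh10 probe set, which is dimmer, gave a difference of -0.418 (limma adjusted p = 0.958). With the mean of its probe sets Rdh10 differed by -1.77 and did not pass (limma adjusted p = 0.059). In unprimed arrays Dhrs3 averaged 5.11 and Rdh10 7.88, so the glia-primed mean of Dhrs3 lay above the unprimed level and the mesenchyme-primed mean below it, while both means of Rdh10 lay below it, the glia-primed one farther. The retinoic acid binding proteins Crabp1 (difference -1.18, limma adjusted p = 0.698) and Crabp2 (difference -1.01, limma adjusted p = 0.518) had no overlap between the groups but did not pass. Rarb, a receptor gene induced by retinoic acid, had a difference of 1.15 (limma adjusted p = 0.558) with overlapping groups.

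Cpm, a membrane carboxypeptidase that trims peptides at their carboxy end, had the largest difference among the higher genes. It was at 6.28, 6.18, 5.88 and 5.73 in glia-primed arrays and at 3.45, 1.42, 2.61 and 2.15 in mesenchyme-primed arrays, which is 12.2-fold higher (difference 3.61, SE 0.39, limma adjusted p = 0.000854). The mesenchyme-primed mean of 2.41 lies below the median intensity of its arrays (3.08 to 3.15), so the size of this difference is rough. Its second probe set gave a difference of 1.25. In neuron-primed arrays Cpm was at 5.05 to 6.59 and in unprimed arrays at 1.62 to 2.48, which puts the mesenchyme-primed arrays with the unprimed ones.

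Among BMP response genes 1 of 22 measured members was higher (against 0.0715% of all genes), 0 lower and 21 did not pass. The median difference was 0.328. In 3 members all glia-primed values lay above the mesenchyme-primed ones and in 0 all lay under them, against 2.09% and 2.46% of all genes. The mean level of the list was 4.69 to 4.88 in glia-primed and 4.33 to 4.46 in mesenchyme-primed arrays. It was 4.09 to 4.7 in neuron-primed and 4.02 to 4.26 in unprimed arrays. The member that passed was Id3, a direct BMP target whose protein blocks DNA binding by basic helix-loop-helix factors. Id3 was at 7.61, 8.62, 8.59 and 8.36 in glia-primed and at 6.93, 6.73, 6.48 and 7.07 in mesenchyme-primed arrays (difference 1.5, SE 0.24, limma adjusted p = 0.0177). Id1 (difference 0.60, limma adjusted p = 0.761) and Id2 (difference 1.12, limma adjusted p = 0.726) did not pass, although the Id1 values did not overlap. Msx2, a homeobox BMP target, was at 4.30 to 5.31 in glia-primed and at 2.91 to 3.54 in mesenchyme-primed arrays (difference 1.53, limma adjusted p = 0.182). Bmp5, a BMP ligand outside this list, was at 7.95 to 8.64 in glia-primed and 4.86 to 6.46 in mesenchyme-primed arrays, and its difference of 2.75 did not pass either (limma adjusted p = 0.263).

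TGF-beta response genes had 1 of 21 measured members higher (against 0.0715% of all genes), 0 lower and 20 not passed. The median difference was 0.635. In 5 members all glia-primed values lay above the mesenchyme-primed ones and in 1 all lay under them, against 2.09% and 2.46% of all genes. The mean level of the list was 5.41 to 5.8 in glia-primed and 4.87 to 5.07 in mesenchyme-primed arrays. It was 4.78 to 5.89 in neuron-primed and 4.05 to 4.48 in unprimed arrays. Spsb1, an adaptor of a ubiquitin ligase that acts on the TGF-beta receptor, was at 9.11, 8.65, 9.03 and 8.27 in glia-primed and at 6.38, 5.91, 7.31 and 6.15 in mesenchyme-primed arrays (difference 2.33, SE 0.44, limma adjusted p = 0.0493). Both primed groups lay above the unprimed range of 2.85 to 5.10, and the difference from unprimed arrays was 5.0 in glia-primed (limma adjusted p = 0.000142) and 2.67 in mesenchyme-primed arrays (limma adjusted p = 0.0723). Pmepa1, a TGF-beta-induced brake on SMAD signalling, was at 8.66 to 9.45 in glia-primed and 7.50 to 9.04 in mesenchyme-primed arrays, so the groups overlapped (difference 1.09, limma adjusted p = 0.743). Its differences from unprimed arrays were 5.40 in glia-primed (limma adjusted p = 0.000207) and 4.30 in mesenchyme-primed arrays (limma adjusted p = 0.0203). The calls of Id3 and Spsb1 were each lost without certain single arrays, Id3 without glia-primed replicates 2, 3 or 4 or mesenchyme-primed replicates 1, 2 or 3, and Spsb1 without any glia-primed replicate, mesenchyme-primed replicates 1, 2 or 4, unprimed replicates 1 or 3, or neuron-primed replicates 2 or 4.

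Genes of serine and one-carbon metabolism and of the ATF4 amino acid response had 1 of 26 measured members higher, 0 lower and 25 not passed. The share called higher over all genes was 0.0715%. The median difference of the list was 0.444. In 5 members all glia-primed values lay above the mesenchyme-primed ones and in 0 all lay under them, against 2.09% and 2.46% of all genes. Asns, the asparagine synthetase and a classical ATF4 target, was at 9.36, 9.35, 9.29 and 9.05 in glia-primed and at 8.39, 8.0, 8.21 and 8.59 in mesenchyme-primed arrays (difference 0.96, SE 0.18, limma adjusted p = 0.0381). It was the smallest difference among the higher genes, with an SD of 0.15 in glia-primed and 0.25 in mesenchyme-primed arrays, and the call was lost in 12 of 16 fits that left out 1 array. Cth, which makes cysteine, was at 4.78, 6.4, 6.05 and 4.62 in glia-primed and 2.65 to 3.45 in mesenchyme-primed arrays and did not pass (difference 2.52, limma adjusted p = 0.0863). Mthfd2, a mitochondrial folate enzyme (difference 0.97, limma adjusted p = 0.229), Shmt2, which hands carbon units from serine to folate (difference 0.72, limma adjusted p = 0.391), and the amino acid transporter subunit Slc3a2 (difference 0.95, limma adjusted p = 0.373) also had no overlap and did not pass. Atf4 itself had a difference of 0.19 (limma adjusted p = 0.876). The Asns promoter is shown because it held an amino acid response element, searched as TGATGNAA on both strands and marked in capitals 23 bases before the start.
It reads as follows.
Asns (chr6:7693210-7693459, minus strand): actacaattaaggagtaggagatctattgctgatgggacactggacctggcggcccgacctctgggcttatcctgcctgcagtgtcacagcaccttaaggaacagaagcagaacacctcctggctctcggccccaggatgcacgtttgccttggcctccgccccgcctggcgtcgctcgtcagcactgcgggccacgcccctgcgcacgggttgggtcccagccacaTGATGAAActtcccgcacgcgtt

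This motif was in 3.53% of all promoters and, among the 10 called higher genes with an entry, in Asns alone (10%).

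**Figure D3:**
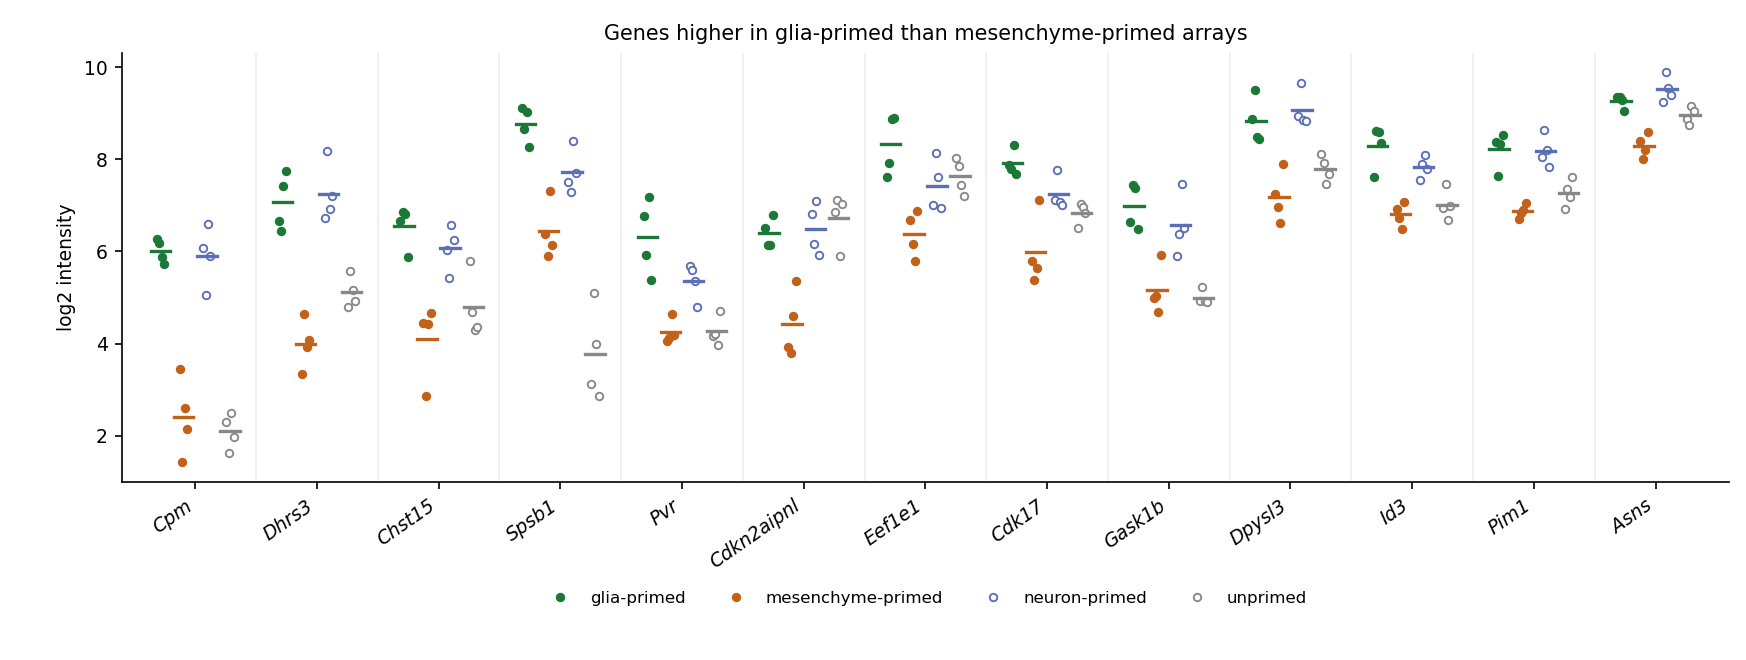
Log2 intensity of the 13 genes that were higher in glia-primed arrays (points, each array; lines, mean of each group of 4), ordered by the size of the difference. Glia-primed arrays lie above mesenchyme-primed arrays in each gene. Neuron-primed means lie above the mesenchyme-primed means in all 13, which the choice of these genes itself favours.

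The remaining higher genes have varied roles. Dpysl3, a collapsin response mediator that binds microtubules, was at 8.87, 9.50, 8.49 and 8.44 in glia-primed and at 7.25, 6.96, 6.61 and 7.89 in mesenchyme-primed arrays (difference 1.64, SE 0.30, limma adjusted p = 0.0381), and its 2 other probe sets gave 0.999 and 2.67. Chst15, a sulfotransferase that modifies chondroitin sulfate, was at 6.66, 6.85, 6.82 and 5.88 in glia-primed and at 4.45, 2.86, 4.43 and 4.66 in mesenchyme-primed arrays (difference 2.46, SE 0.43, limma adjusted p = 0.0307). Pim1, a growth-promoting serine kinase, was at 7.64 to 8.52 in glia-primed and 6.71 to 7.05 in mesenchyme-primed arrays (difference 1.35, SE 0.22, limma adjusted p = 0.0215). Cdk17, a cyclin-dependent kinase found in neurons, differed by 1.92 (limma adjusted p = 0.0196), with mesenchyme-primed replicate 4 at 7.11 and the other 3 at 5.39 to 5.79. Eef1e1, a component of the aminoacyl-tRNA synthetase complex (difference 1.95, limma adjusted p = 0.0381), and the Golgi protein Gask1b (difference 1.83, limma adjusted p = 0.0381) completed the set with the pair that follows. Pvr, the poliovirus receptor, an adhesion molecule (difference 2.06, limma adjusted p = 0.0209), and Cdkn2aipnl (difference 1.97, limma adjusted p = 0.0459) rest on cross-matching probe sets. With such probe sets left out, Pvr differed by 0.236 and Cdkn2aipnl by 0.237, and neither passed. Of 16 fits that left out 1 array, the Gask1b call was lost in 13, and the Dpysl3, Eef1e1 and Cdkn2aipnl calls in 11 each. The Chst15 and Pim1 calls were lost in 6 each, and the Cdk17 and Pvr calls in 5 each.

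Among the lower genes outside metabolism were membrane proteins of neural cells. Ngfr, the low-affinity neurotrophin receptor by which crest stem cells are often isolated, was at 6.27, 7.29, 7.74 and 7.50 in glia-primed arrays and at 9.65, 9.68, 9.18 and 9.06 in mesenchyme-primed arrays, which is 4.56-fold lower (difference -2.19, SE 0.39, limma adjusted p = 0.0307). It was at 8.32 to 9.39 in unprimed and 5.57 to 7.22 in neuron-primed arrays, and its other probe sets gave -1.40 and -0.579. The Ngfr call was lost without any 1 of the 8 arrays compared. Gpr17, a receptor of oligodendrocyte precursors, was at 2.82, 3.06, 3.25 and 3.19 in glia-primed and at 4.36, 6.09, 4.78 and 5.05 in mesenchyme-primed arrays (difference -1.99, SE 0.30, limma adjusted p = 0.0129). It was at 2.99 to 3.12 in unprimed arrays, so that here the mesenchyme-primed arrays stood apart (difference from unprimed 2.02, limma adjusted p = 0.0465). Glia-primed arrays differed from unprimed ones by 0.03 (limma adjusted p = 0.989). Glia-primed and unprimed values of Gpr17 lay near the median intensity of their arrays, on 1 probe set, so the size of these differences is rough. Rgmb, a BMP co-receptor, was at 3.94, 3.72, 4.20 and 5.56 in glia-primed and at 6.64, 7.20, 5.71 and 6.42 in mesenchyme-primed arrays (difference -2.14, SE 0.37, limma adjusted p = 0.0307), and all 5 of its other probe sets had the same sign (-2.94 to -0.314).

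The other lower genes were Nol3, an inhibitor of apoptosis (difference -1.97, limma adjusted p = 0.0307), Grhpr, a glyoxylate reductase (difference -1.69, limma adjusted p = 0.0177), Nampt, the rate-limiting enzyme of NAD salvage (difference -1.42, limma adjusted p = 0.0352), and Mrps18c, a mitochondrial ribosomal protein (difference -0.89, limma adjusted p = 0.0352). The second Nol3 probe set gave 0.0887, and the other Nampt probe sets gave -1.16 and -1.17. Of 16 fits that left out 1 array, the Mrps18c call was lost in 10, Nampt in 8, Nol3 in 7 and Grhpr in 6. Over the 28 called genes with several probe sets, 47 of 54 other probe sets had the sign of the one used, 30 of them with a difference of at least 1, and 7 had the opposite sign. In the leave-one-out fits over all 16 arrays, 13 of the 41 genes passed every time. Under every alternative that gave a value 9 passed, namely Cyp51, Mvd, Nsdhl, Sqle, Insig1, Lss, Tpi1, Cpm and Dhrs3. Of these, Tpi1 and Dhrs3 had no value without probe sets that can match several transcripts.

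The labels were checked against markers of the 2 fates, and the mean levels of these marker lists overlapped between the groups. Of 27 measured glia and Schwann cell genes, 1 was lower (Ngfr), 0 were higher and 26 did not pass, with a median difference of -0.105. The share called lower over all genes was 0.154%. Erbb3, the neuregulin receptor of crest and Schwann cells, was bright in both groups, at 9.20 to 10.03 in glia-primed and 9.38 to 10.01 in mesenchyme-primed arrays (difference -0.18, limma adjusted p = 0.989). Sox10, the crest and glial transcription factor, was at 6.80, 8.39, 7.28 and 7.90 in glia-primed and at 8.91, 9.63, 8.50 and 8.33 in mesenchyme-primed arrays (difference -1.25, limma adjusted p = 0.818), and its other probe sets gave -0.627 and 0.337. Markers of maturing glia were close to the array medians of 3.08 to 3.15 in both groups, with S100b at 3.31 to 3.66 in glia-primed and 3.09 to 3.61 in mesenchyme-primed arrays and Gfap at 2.77 to 3.07 in glia-primed and 2.46 to 3.26 in mesenchyme-primed arrays. Cdh19, a cadherin of Schwann cell precursors, was at 2.63 to 4.44 in glia-primed and at 2.35 to 3.24 in mesenchyme-primed arrays (limma adjusted p = 0.744). Cryab, a small heat shock protein also found in Schwann cells, was the member with the largest positive difference, at 8.33, 8.34, 8.49 and 8.77 in glia-primed and at 5.45, 5.0, 5.44 and 6.36 in mesenchyme-primed arrays, but it did not pass (difference 2.92, limma adjusted p = 0.263). Fabp7, a fatty acid carrier of immature glia, overlapped between the groups, at 6.58 to 7.66 in glia-primed and 5.07 to 9.67 in mesenchyme-primed arrays.

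Smooth muscle genes had 0 of 25 members passed, with a median difference of 0.333, and matrix and mesenchyme genes had 0 of 32 passed, with a median of 0.0639. At an unadjusted p under 0.05, 3 smooth muscle genes were higher and 0 lower, and 1 matrix gene was higher and 1 lower. Of all 18194 genes, 618 were higher and 665 lower at this threshold. Glia-primed values all lay above the mesenchyme-primed ones in 4 smooth muscle genes and all under them in 0. For matrix genes these counts were 0 and 1, and over all genes the shares were 2.09% and 2.46%. The smooth muscle list was at 6.69 to 6.91 in glia-primed arrays and at 6.34, 6.27, 6.74 and 6.51 in mesenchyme-primed replicates 1 to 4. Tagln, a smooth muscle actin-binding protein, was at 9.92, 10.16, 9.78 and 10.23 in glia-primed and at 8.41, 8.88, 8.22 and 9.18 in mesenchyme-primed arrays, a difference of 1.35 that did not pass (limma adjusted p = 0.638). The actin-binding proteins Cald1 (difference 1.10, limma adjusted p = 0.607) and Tpm1 (difference 0.79, limma adjusted p = 0.604) likewise had their higher values in glia-primed arrays and did not pass. Cnn1 was at 3.5 to 4.43 in glia-primed and 2.93 to 4.03 in mesenchyme-primed arrays, and Acta2, smooth muscle actin, at 5.28 to 7.36 in glia-primed and 5.20 to 9.30 in mesenchyme-primed arrays, both overlapping. Fn1, fibronectin, had a difference of 1.15 (limma adjusted p = 0.612) and Fbln1, a matrix glycoprotein, of -1.16 (limma adjusted p = 0.541).

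Mesenchyme-primed replicate 3 stood apart from the other mesenchyme-primed arrays in some matrix genes. The mean level of the matrix list was 5.06 to 5.49 in glia-primed arrays, 6.47 in this array and 4.57 to 4.98 in the other 3 mesenchyme-primed arrays. Col1a1, a fibrillar collagen chain, was at 7.68 to 9.33 in glia-primed arrays and at 6.91, 6.66, 11.56 and 7.16 in mesenchyme-primed replicates 1 to 4. Lox, which cross-links collagen, was at 1.54 to 2.32 in glia-primed arrays, at 7.90 in mesenchyme-primed replicate 3 and at 1.86 to 2.32 in the other mesenchyme-primed arrays. Thy1, a fibroblast surface protein, and Prrx1, a mesenchymal homeobox factor, were at 7.82 and 7.30 in replicate 3. In the other mesenchyme-primed arrays they were at most 2.91 and 3.77. Fbln1 and Fn1 did not stand apart, at 10.03 and 7.55 in replicate 3, against 10.02 to 10.3 and 5.71 to 7.62 in the others. Without this array 4 genes were higher and 17 lower in glia-primed arrays, and 20 of the 41 were among them.

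Crest progenitor genes had 1 of 28 members higher (Id3), 1 lower (Ngfr) and 26 not passed, with a median difference of -0.102. The shares over all genes were 0.0715% higher and 0.154% lower. Sox8, a relative of Sox10, was at 4.82 to 5.37 in glia-primed and 7.01 to 7.95 in mesenchyme-primed arrays, and its difference of -2.16 did not pass (limma adjusted p = 0.255). The mean levels of the neuronal lists overlapped between the groups as well. The autonomic, general neuronal and sensory neuron lists had 0 of 23, 0 of 30 and 0 of 14 members passed in limma. At an unadjusted p under 0.05, 0 were higher in each list, and 1, 1 and 0 were lower. Of all 18194 genes, 618 were higher and 665 lower at this threshold. The members of smallest p of the autonomic list were the zinc finger factor Insm1 (difference -2.02, limma adjusted p = 0.635) and the amine-synthesis enzyme Ddc (difference 0.95, limma adjusted p = 0.791). The synaptic protein Snap25 (difference -2.75, limma adjusted p = 0.586) and the microtubule protein Dcx (difference -0.57, limma adjusted p = 0.749) followed for the general neuronal list. The neurotrophin receptors Ntrk2 (difference -0.30, limma adjusted p = 0.835) and Ntrk3 (difference 0.54, limma adjusted p = 0.776) stood for sensory neurons. Cartilage and bone genes had 0 of 21 passed and 1 lower at an unadjusted p under 0.05, with Hapln1 at -1.10 (limma adjusted p = 0.707) and Matn3 at -0.56 (limma adjusted p = 0.714).

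**Figure D4:**
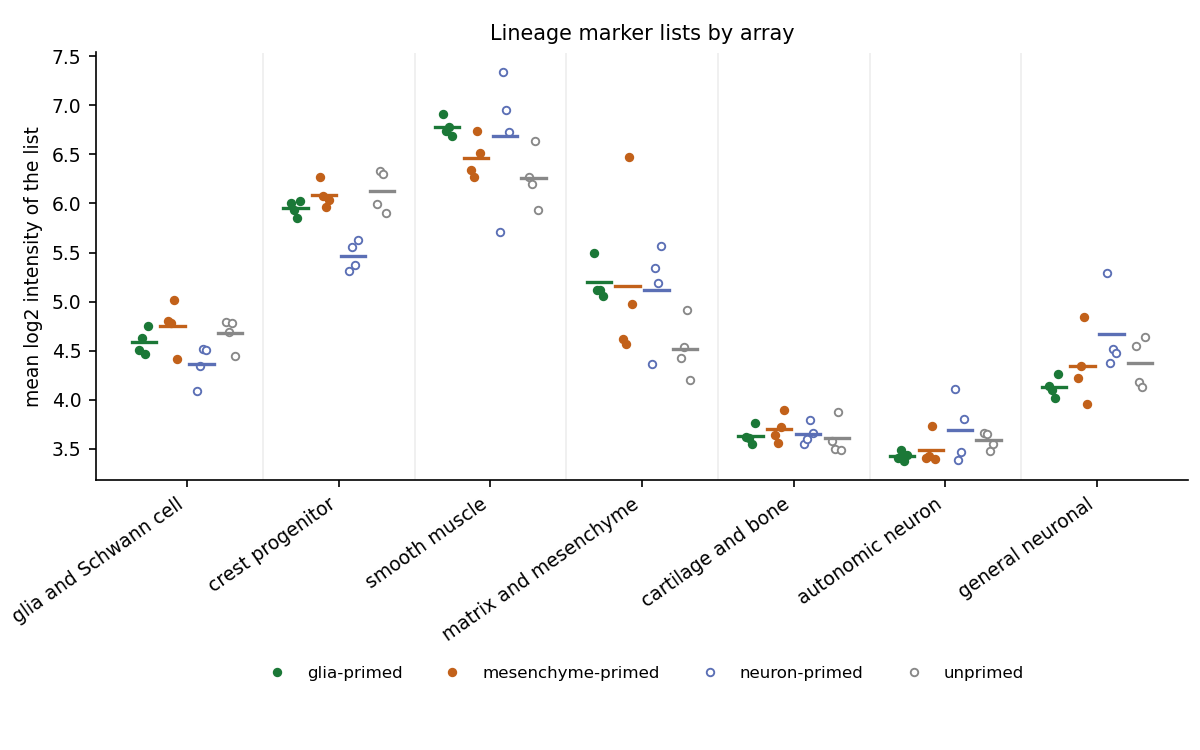
Mean log2 intensity of 7 lineage marker lists in each array (points) with the mean of each group of 4 (lines). The ranges of glia-primed and mesenchyme-primed arrays overlap in all 7 lists, and mesenchyme-primed replicate 3 is alone at 6.47 in the matrix and mesenchyme list.

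**Figure D5:**
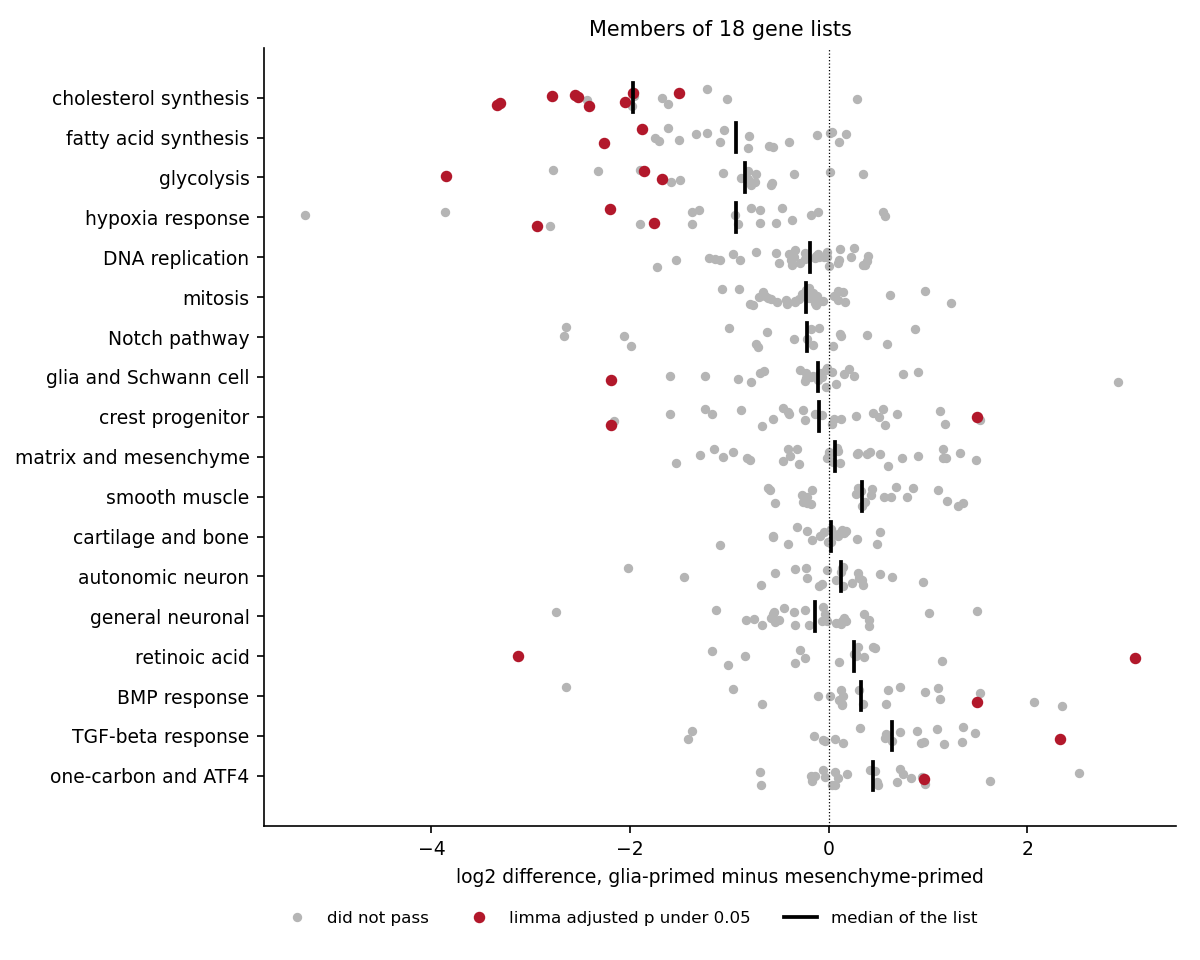
Log2 difference, glia-primed minus mesenchyme-primed, of every measured member of 18 gene lists (points; red, limma adjusted p under 0.05), with the median of each list as a line. The medians of cholesterol synthesis (-1.97), fatty acid synthesis (-0.936), hypoxia response (-0.93) and glycolysis (-0.846) lie farthest from 0.

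Markers of pigment cells, which the crest can form, and of cell types from outside the crest were low and did not pass. The mean list levels of melanocyte, endothelial, blood, epithelial and skeletal muscle markers were 2.55 to 3.34 in glia-primed arrays and 2.58 to 3.53 in mesenchyme-primed arrays, around or below the median intensity of an array, and 0 of 75 members passed, with 5 higher and 0 lower at an unadjusted p under 0.05 in limma. Neural tube markers were at 2.95 to 4.02 in glia-primed and 3.28 to 4.64 in mesenchyme-primed arrays, with 0 of 15 passed and 0 at an unadjusted p under 0.05. Among them Sox1, a neural progenitor factor, was at 1.91 to 4.71 in glia-primed arrays, at 9.41 in mesenchyme-primed replicate 3 and at 4.65 to 5.60 in the other mesenchyme-primed arrays (limma adjusted p = 0.714). The part of such cells in the results above was not tested. Cell cycle genes had 0 of 36 DNA replication genes and 0 of 34 mitotic genes passed, with medians of -0.184 and -0.227. At an unadjusted p under 0.05, 6 replication genes were lower and 0 higher, and 4 mitotic genes were lower and 1 higher. Of all 18194 genes, 665 were lower and 618 higher at this threshold.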

How the data were processed

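RNA was labelled from 2 ug of total RNA by the one-cycle protocol and hybridised to Affymetrix arrays, per the labels' protocols. The authors deposited linear intensities made with RMA, which corrects background, normalizes arrays between each other and summarises probes, per the submitters' processing notes; its version is not given in the sources used here. These intensities ran from 1.49 to 31600 over 45101 probe sets and were turned to log2 here with no offset. The probe annotation gave 1 symbol for 34958 probe sets, several for 932 and none for 9211, and the probe set of highest mean over all 16 arrays stood for each of 18194 genes. Symbols were updated by Entrez number to RefSeq on GRCm38.p6 (99.4% matched). Arrays carry no read depth, and their number limits the precision.

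A limma model (version 3.58.1, R 4.3.3) with 1 mean per group was fitted over all 16 arrays, leaving 12 residual degrees of freedom, and p-values were adjusted by Benjamini-Hochberg over all genes. The script was tested on simulated data. Named genes were the 12 largest called differences each way, up to 4 called members of each list by smallest p, the 2 members of smallest p of lineage lists without a called member, and Sox10; any other gene named was chosen after its values were seen. The members of the comparison and the 40 gene lists were chosen with earlier results of these data known. Together with the housekeeping list these lists held 815 genes, 763 with a value. Alternatives were scaling, offset, a filter on dim genes, the mean of probe sets, eBayes settings, array weights and covariates. Others were the samples in the fit, a replicate block and leaving out each array. A further filter left out probe sets ending in _a_at, _s_at or _x_at, which can match several transcripts of the same gene or of others. Same-numbered glia-primed and mesenchyme-primed arrays did not deviate together (correlations of their deviations -0.0406 to 0.0166).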

Additional observations from a re-analysis of the deposited data

Results flagged for a closer look

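Within each group of 4 arrays, 324 sets of values (121 genes and 41 list levels in glia-primed and mesenchyme-primed arrays) were searched for 1 array far from the other 3. This found 18 (5.56%), and chance gives about 1 in 20. Mesenchyme-primed replicate 3 held 4 of them. In that array Col1a1 was at 11.56 (others 6.66 to 7.16), Lox at 7.9 (others 1.86 to 2.32), Thy1 at 7.82 (others 2.64 to 2.91) and the autonomic neuron list at 3.73 (others 3.4 to 3.43).

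Among genes that passed, Idi1 was at 10.24 in glia-primed replicate 1 (others 9.0 to 9.15), Chst15 at 2.86 in mesenchyme-primed replicate 2 (others 4.43 to 4.66) and Fabp5 at 11.62 in mesenchyme-primed replicate 1 (others 11.45 to 11.46). Among genes that did not pass, Ggps1 was at 3.75 in glia-primed replicate 4 (others 5.98 to 6.11) and Prrx1 at 3.9 in glia-primed replicate 1 (others 2.97 to 3.12). In mesenchyme-primed replicate 2, Fn1 was at 5.71 (others 7.55 to 7.62), Ntrk3 at 3.21 (others 2.76 to 2.82) and Slc3a2 at 6.21 (others 6.53 to 6.58).

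The remaining cases were list levels. The matrix list was at 5.49 in glia-primed replicate 1 (others 5.06 to 5.12), and the list of G1 regulators and CDK inhibitors at 6.49 in glia-primed replicate 3 (others 5.94 to 5.99). In glia-primed replicate 4 the melanocyte list was at 3.2 (others 2.69 to 2.77) and the epithelium list at 3.32 (others 2.9 to 2.96). The epithelium list was at 3.15 in mesenchyme-primed replicate 2 (others 2.84 to 2.88), and the glycolysis list at 8.79 in mesenchyme-primed replicate 4 (others 9.05 to 9.1). No cause of these values was tested.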

How the results depend on the processing

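All 41 genes kept their sign under every alternative that gave them a value, and the number that passed varied. Leaving out 1 of the 16 arrays at a time gave 2 to 25 higher genes, 12 to 43 lower genes and 13 to 41 of the 41 still passing. With the replicate number as a block, 4 genes were higher, 18 lower and 20 of the 41 passed; the numbers are not shown to pair the arrays. A fit of only the 8 arrays gave 17 lower genes and 15 of the 41. Housekeeping centring gave 26 higher genes, array weights gave 46 lower genes, and the Xist covariate gave 5 higher, 16 lower and 19 of the 41. The other settings gave 9 to 17 higher and 26 to 40 lower genes. Signs turned only in genes that did not pass, with Dcx at 0.326 under an offset of 16. Without probe sets that can match several transcripts, Fbln1 turned to 0.0638 and Matn3 to 0.163. The cholesterol list had 6 to 12 called members over all settings, the glycolysis list 1 to 6, the fatty acid list 0 to 5 and the hypoxia list 0 to 5. The cause of these changes was not tested. Values near the array median of 3.08 to 3.15, such as Cpm in mesenchyme-primed arrays, limit the precision of a fold.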

Other observations

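Notch pathway genes had 0 of 19 members passed in limma, with a median difference of -0.214. At an unadjusted p under 0.05, 1 was higher and 4 were lower, against 618 higher and 665 lower of all 18194 genes. Dll1, a Notch ligand, was at 3.30 to 4.75 in glia-primed and 5.88 to 7.74 in mesenchyme-primed arrays (difference -2.66, limma adjusted p = 0.543). Heyl, a transcriptional repressor induced by Notch, was at 5.53 to 7.91 in glia-primed and 8.25 to 9.32 in mesenchyme-primed arrays (difference -2.06, limma adjusted p = 0.511), while Hey1 overlapped (difference -2.64, limma adjusted p = 0.47).

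Hox genes, which record position along the body axis, had 0 of 24 members passed in limma. At an unadjusted p under 0.05, 2 were higher and 0 lower, against 618 and 665 of all 18194 genes. The median difference of the Hox list was 0.417, and 18 members were positive. Hoxa7 was at 5.59 to 6.09 in glia-primed and 4.46 to 5.12 in mesenchyme-primed arrays (difference 1.05, limma adjusted p = 0.48), and Hoxc5 at 5.46 to 6.30 in glia-primed and 4.37 to 4.87 in mesenchyme-primed arrays (difference 1.19, limma adjusted p = 0.586).

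Several large differences missed the threshold although the groups did not overlap. Fgd5, a Cdc42 exchange factor known from endothelium, was at 7.49, 8.14, 7.55 and 8.19 in glia-primed and at 3.53, 3.77, 3.08 and 2.72 in mesenchyme-primed arrays (difference 4.57, limma adjusted p = 0.0849). Cxcr4, a chemokine receptor of migrating cells, was at 5.73, 5.02, 3.20 and 2.63 in glia-primed and at 8.78, 8.43, 8.36 and 7.37 in mesenchyme-primed arrays (difference -4.09, limma adjusted p = 0.24). Sgpp1, a sphingosine phosphate phosphatase, had a difference of -3.51 (limma adjusted p = 0.0544). Cyp1b1, which also oxidises retinoids, differed by 3.23 (limma adjusted p = 0.115) and Hbegf, an EGF receptor ligand, by 3.10 (limma adjusted p = 0.255). These genes were chosen after their values were seen.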
